A study of Mus musculus with 35 samples.

Results

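Skin taken 3 weeks after a single radiation dose was compared with control skin of the same week by bulk RNA sequencing, over all genes. The comparison holds 8 of the 35 libraries of the series, 4 labelled radiated and 4 labelled control, chosen by these labels alone. The mice were C57BL/6J females, an inbred laboratory strain, 10 weeks old, and the labels name no transgene or engineered allele. The radiated skin lay on the left flank and had received 25 Gy at 3.6 Gy per min, after which the treated skin was shaved. The series has 4 radiated and 4 control samples at each of weeks 1, 2, 3 and 4 and 3 sham samples from mice that had no radiation, 35 samples from 19 mice. These numbers leave 1 mouse for each same-numbered radiated and control sample within a week, and the controls of week 3 are therefore read as skin of radiated animals. The labels do not give the body site of the control skin or whether it was shaved, so a difference between body sites and an effect of radiation cannot be told apart.

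Skin has a keratinocyte layer, the epidermis, that divides at its base and hardens towards the surface, and a collagen-rich dermis below it with hair follicles, vessels, nerves, fat and, in the mouse, a thin sheet of skeletal muscle. Ionizing radiation breaks DNA and stalls the dividing basal cells, and the reddening and ulceration that can follow weeks later are known as radiation dermatitis. Injured keratinocytes replace their resting keratins with KRT6, KRT16 and KRT17 and release alarmins and chemokines that draw in neutrophils, and fibroblasts then remodel the matrix with metalloproteinases, tenascin and new collagen.

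The total count per library ran from 18450709 to 25942860 in radiated skin, from 19509652 to 27688471 in control skin and from 17362853 to 23069300 in sham skin. Mitochondrial transcripts made up 1.04% to 1.30% of the counts of radiated libraries and 2.24% to 4.14% of those of control libraries, and these ranges do not overlap. In a principal component analysis of the 8 libraries the first component held 54.0% of the variance, and the 4 control libraries lay at 52.2 to 71.7 and the radiated ones at -89.5 to -32.5. The radiated libraries varied more than the controls, with a median SD of log2 CPM per gene of 0.377 against 0.258. Markers of keratinocytes, fibroblasts, muscle, endothelium and macrophages were present in every library, as the labelled tissue would hold, and the summed level of 4 milk protein genes, which skin should lack, was at most 1.44 CPM.

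Of 17653 genes tested, 4805 (27.2%) differed between radiated and control skin at an adjusted p under 0.05 in edgeR's quasi-likelihood test, 2408 higher (13.6%) and 2397 lower (13.6%). The changes upward were larger: 1615 of the higher genes and 1041 of the lower genes had a log2 fold change beyond 1. The 4 radiated and 4 control libraries did not overlap for 4367 of the 4805 genes. Over all 17653 genes tested they did not overlap for 5562 (31.5%), 15.4% higher and 16.1% lower. Of the 4805, 4683 differed in the same direction in all 4 same-numbered pairs. Both counts come from the values that gave the calls, so they add no support to them. Left out as a pair, replicate 1 took the count to 2385 and replicate 2 took it to 2616. When libraries were scaled by their totals instead of by trimmed means, the median over all genes moved from 0.08 to 0.32 on the log2 scale and 5324 genes passed (30.2%), 4054 higher (23%) and 1270 lower (7.19%), while 3678 of the 4805 calls were kept and none changed sign. The calls lost with total-count scaling were not only small differences, and Lgr6 (-2.08) and Cox8b (-1.25) were among them. In bulk tissue, fewer cells of a type and less RNA per cell cannot be told apart, and this holds for every gene named here.

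**Figure D1:**
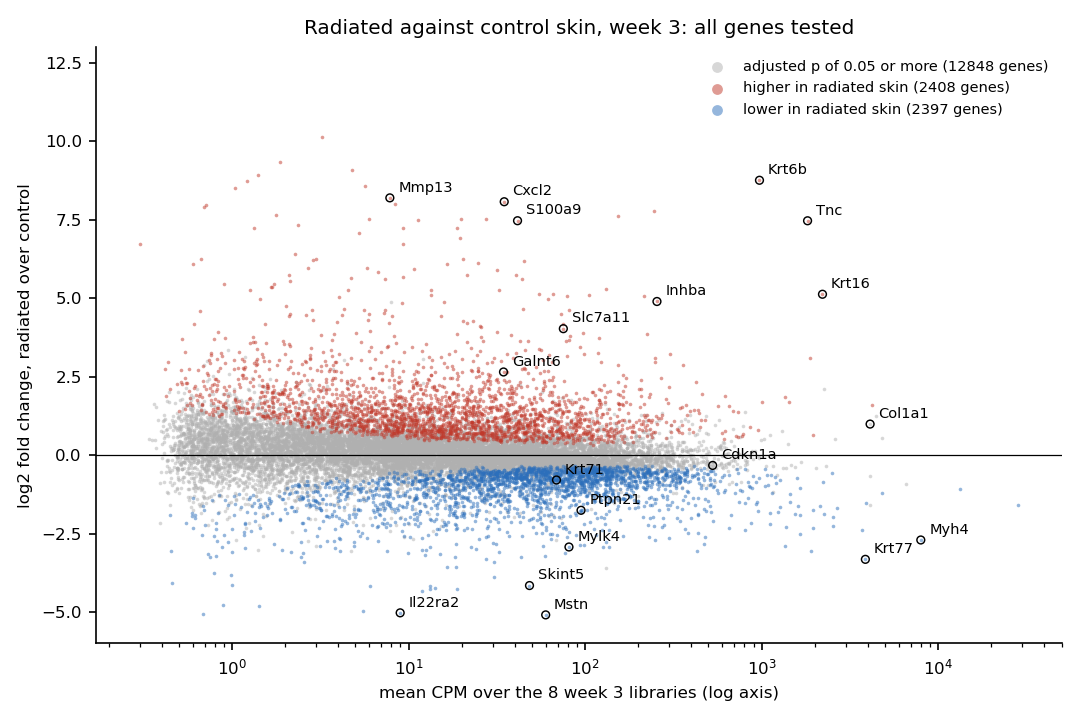
Each point is 1 of the 17653 genes tested, with its mean CPM over the 8 week 3 libraries on a log axis and its log2 fold change of radiated over control skin. Red points are the 2408 genes that were higher and blue points the 2397 that were lower at an adjusted p under 0.05, and circled genes are named in the text.

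The 12 largest rises included epidermal stress and envelope genes, protease inhibitors of the stefin family, the myeloid genes Acod1, S100a9 and Retnlg, 1 chemokine and a collagenase. Krt6b, a keratin of wounded epidermis (chromosome 15, 101676023 to 101680287, GRCm38), measured 430.4, 936.2, 3720 and 2676 CPM in radiated libraries 1 to 4 and 0.827, 1.38, 15.0 and 0.633 CPM in control libraries 1 to 4. Every radiated library lay above every control library (log2 difference 8.75, SE 1.35), with an adjusted p of 0.00257 in edgeR. Cxcl2, a chemokine that attracts neutrophils (chromosome 5, 90903871 to 90905938), measured 111, 54.7, 85.2 and 26.5 CPM in radiated skin and 0.1378 to 0.4601 CPM in control skin. The depth-scaled counts of Cxcl2 were 280-fold higher in radiated skin, with a 95% exact counting interval of 183 to 453, and the fitted log2 difference was 8.07 with an SE of 0.59 (adjusted p 0.000506 in edgeR). Mmp13, collagenase 3 (chromosome 9, 7272514 to 7283331), measured 34.6, 5.72, 18.0 and 4.21 CPM in radiated skin and had 4 counts in the 4 control libraries together, a ratio of 330 (129 to 1213). The ratios of Cxcl2 and Mmp13 rest on few control counts, 21 and 4 in all, against 380 for Krt6b.

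Among the other 9 genes of the 12 with the largest rise, 4 encode proteins of the cornified surface layer and lie in the epidermal differentiation cluster on chromosome 3. Lce3d had log2 fold change 8.01, Sprr2a2 7.79, Sprr1b 7.61 and Sprr2d 7.52, and all 4 were highest in radiated library 3. Sprr2a2 measured 5.92, 81.4, 1185 and 694 CPM in radiated skin against at most 4.33 CPM in control skin (SE 1.52). Its level in radiated library 1 was thus close to control skin, and Sprr2a2 and Sprr2d did not pass with limma-voom. Lce3d and Sprr2d had 5 counts each in control skin, so their fitted values depend on the prior count, and the ratio for Lce3d was 316 (interval 135 to 975). Sprr1b, a cross-linked envelope protein (92436809 to 92438789), measured 80.2, 62.6, 906 and 171 CPM in radiated skin and 0.805 to 2.73 CPM in control skin. The stefins Stfa2 (8.59) and Cstdc5 (7.52), inhibitors of cysteine proteases on chromosome 16, have near-identical neighbours, so their counts depend on how reads were shared among copies. Stfa2 measured 1.35, 3.78, 25.0 and 15.2 CPM in radiated skin, against 2 counts in all control libraries (ratio 507, interval 140 to 4193).

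The last 3 of the 12 are genes of activated myeloid cells. Acod1, which makes itaconate in activated macrophages and neutrophils, measured 69.5, 38.6, 31.9 and 18.3 CPM in radiated skin and at most 0.4601 CPM in control skin (log2 fold change 7.53, SE 0.72). The alarmin subunit S100a9 measured 232, 35.1, 40.7 and 22.2 CPM against 0.141 to 0.805 CPM (7.47, SE 0.96), and its partner S100a8 measured 105, 19.2, 20.6 and 9.87 CPM against 0.0417 to 0.551 CPM (6.91, SE 0.95). The size of the rise of Retnlg, a resistin-like gene of neutrophils, rested largely on 1 library. Retnlg measured 83.2 CPM in radiated library 1 and 2.47, 3.13 and 0.842 CPM in the other 3, with at most 0.208 CPM in control skin. All 4 radiated libraries lay above every control library (7.50, SE 1.74, adjusted p 0.0125 in edgeR and 0.165 in limma-voom). In radiated library 1 the keratinocyte markers were lowest and the neutrophil markers highest, and the part of cell composition in these values was not tested.

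**Figure D2:**
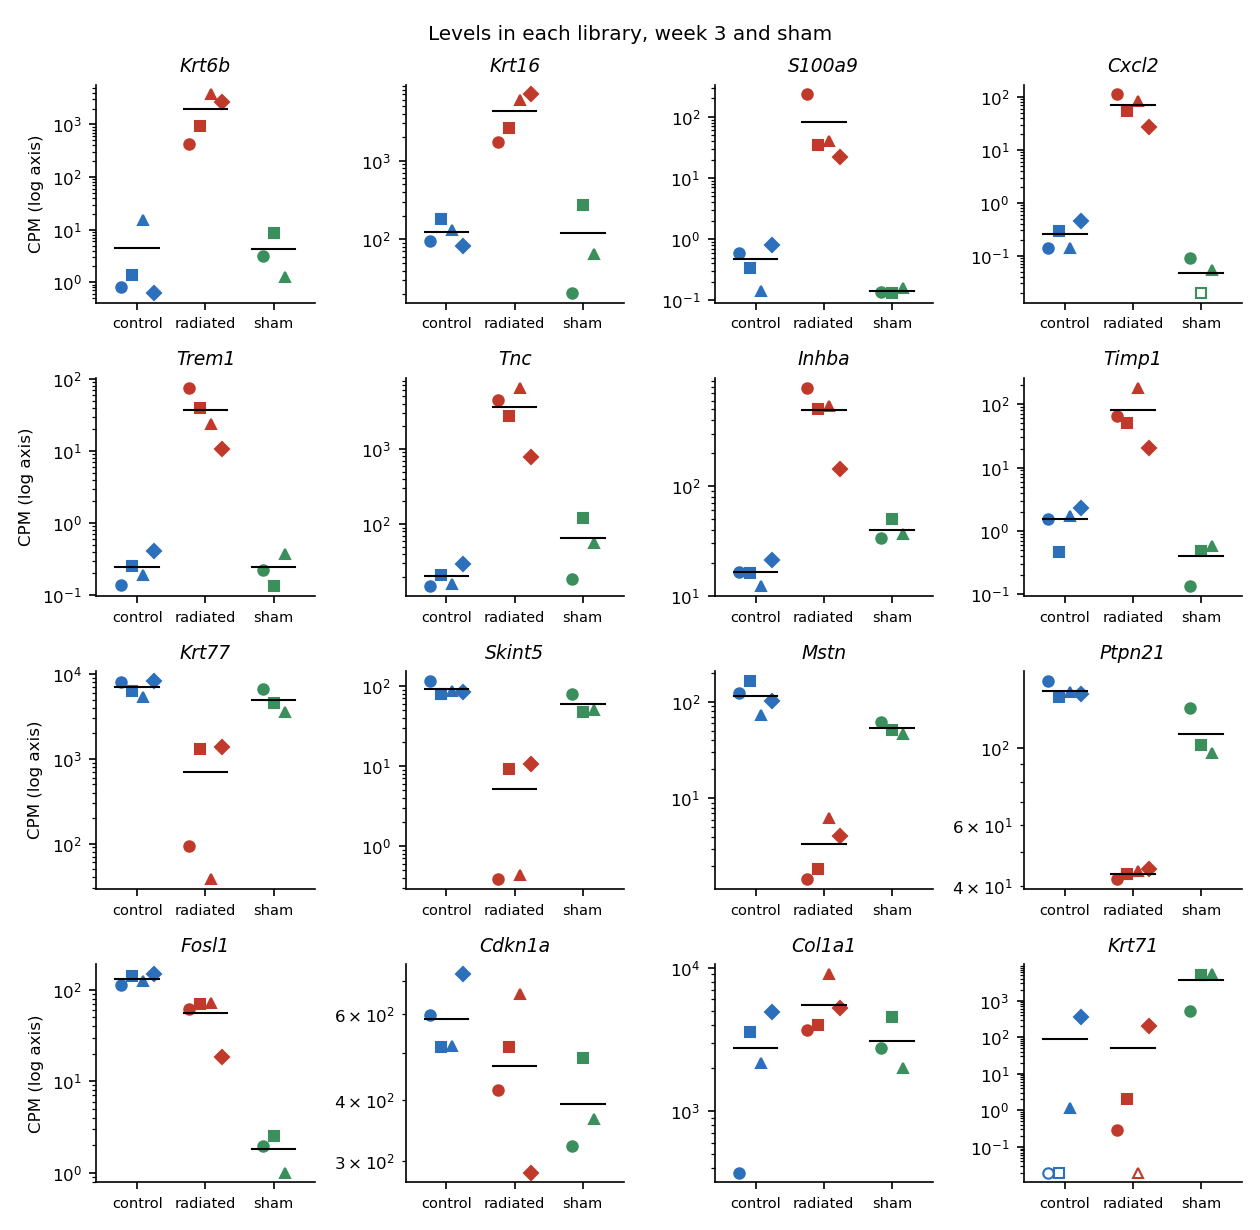
Levels of 16 genes in CPM on log axes, in control (blue), radiated (red) and sham (green) skin. Circles, squares, triangles and diamonds are replicates 1, 2, 3 and 4, bars are group means, and open symbols at the bottom are libraries with a count of 0. Radiated and control libraries do not overlap for Krt6b, Krt16, S100a9, Cxcl2, Trem1, Tnc, Inhba, Timp1, Krt77, Skint5, Mstn, Ptpn21 and Fosl1, and they overlap for Cdkn1a, Col1a1 and Krt71.

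Promoter sequences are shown for 3 chemokine genes and 4 genes of matrix breakdown and the cornified layer that rose. They were chosen because each holds the motif marked in it, and the promoters of other genes that rose, such as Acod1, S100a9, Lce3d and Mmp8, held neither motif. Cxcl1, Cxcl2 and Cxcl3 are neighbours on chromosome 5, and Mmp3, Mmp10 and Mmp13 are neighbours on chromosome 9. The sequences are the 250 bases before the gene start in RefSeq (GRCm38.p6), written in the direction of the gene. Capitals mark a strict form of the NF-kB motif in the chemokine genes and TGANTCA, the AP-1 motif, in the others, each searched on both strands. The chemokine promoters are those of Cxcl1 (chr5:90890995-90891244, plus strand), Cxcl2 (chr5:90903649-90903898, plus strand) and Cxcl3 (chr5:90785851-90786100, plus strand). The others are those of Mmp3 (chr9:7445572-7445821, plus strand), Mmp10 (chr9:7502092-7502341, plus strand), Mmp13 (chr9:7272264-7272513, plus strand) and Sprr1b (chr3:92438780-92439029, minus strand).
Cxcl1: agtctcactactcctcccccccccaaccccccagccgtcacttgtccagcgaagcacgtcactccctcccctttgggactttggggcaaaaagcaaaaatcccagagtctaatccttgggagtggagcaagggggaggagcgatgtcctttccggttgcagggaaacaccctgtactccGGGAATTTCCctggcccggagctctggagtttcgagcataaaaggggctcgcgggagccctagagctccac
Cxcl2: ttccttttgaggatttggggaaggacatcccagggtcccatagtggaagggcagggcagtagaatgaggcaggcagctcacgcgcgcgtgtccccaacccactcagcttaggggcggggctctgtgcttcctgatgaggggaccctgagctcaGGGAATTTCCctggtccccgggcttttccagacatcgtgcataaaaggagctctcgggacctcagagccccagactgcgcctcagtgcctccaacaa
Cxcl3: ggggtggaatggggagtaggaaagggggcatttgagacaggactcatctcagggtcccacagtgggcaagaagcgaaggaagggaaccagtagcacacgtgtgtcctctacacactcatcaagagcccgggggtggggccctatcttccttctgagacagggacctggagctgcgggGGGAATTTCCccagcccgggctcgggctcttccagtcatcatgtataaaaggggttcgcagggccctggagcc
Mmp3: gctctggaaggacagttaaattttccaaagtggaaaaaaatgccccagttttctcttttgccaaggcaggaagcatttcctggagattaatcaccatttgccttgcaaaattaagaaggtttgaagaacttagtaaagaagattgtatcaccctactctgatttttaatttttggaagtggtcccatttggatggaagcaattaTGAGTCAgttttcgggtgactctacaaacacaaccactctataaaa
Mmp10: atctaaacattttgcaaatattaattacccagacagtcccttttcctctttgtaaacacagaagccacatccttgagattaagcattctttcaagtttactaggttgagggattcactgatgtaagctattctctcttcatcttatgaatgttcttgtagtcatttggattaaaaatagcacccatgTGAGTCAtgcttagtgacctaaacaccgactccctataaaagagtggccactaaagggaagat
Mmp13: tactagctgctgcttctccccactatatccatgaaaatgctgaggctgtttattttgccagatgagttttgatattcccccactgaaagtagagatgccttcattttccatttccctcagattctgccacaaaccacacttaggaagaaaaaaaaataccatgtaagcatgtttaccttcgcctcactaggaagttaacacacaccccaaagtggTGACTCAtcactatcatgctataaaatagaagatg
Sprr1b: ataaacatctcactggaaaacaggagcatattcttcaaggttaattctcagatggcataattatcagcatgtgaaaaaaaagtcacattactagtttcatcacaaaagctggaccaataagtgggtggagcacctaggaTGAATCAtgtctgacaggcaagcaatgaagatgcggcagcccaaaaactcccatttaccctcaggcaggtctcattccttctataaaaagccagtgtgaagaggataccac

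Each of the 7 windows holds 1 match to the marked motif, which begins 97 bases before the start in Cxcl2, 71 in Cxcl1, 73 in Cxcl3, 46 in Mmp3, 63 in Mmp10, 35 in Mmp13 and 111 in Sprr1b. Of 27025 genes with a RefSeq promoter, 0.337% hold the strict NF-kB motif and 6.87% hold TGANTCA. Among the 12902 tested genes with a promoter the shares were 0.364% and 5.47%, and among the 150 that rose by a log2 fold change over 3 they were 4.67% (7 genes) and 20% (30 genes). Among all 1761 that were called higher the shares were 0.738% and 6.93%. The AP-1 motif was as frequent among the 36 genes that fell by more than 3, at 19.4% (7 genes), and none of these held the strict NF-kB motif. Among all 1820 that were called lower the shares were 0.33% for NF-kB and 5.22% for AP-1. The TATA box TATAAA was in 26% of the 150 genes and 36.1% of the 36. It was in 9.11% of tested genes, 9.99% of those called higher, 7.25% of those called lower and 13% of all promoters. A wide C/EBP form, TTNCNNAA, was in 54% of the 150 genes and 44.4% of the 36. This form was in 31.2% of tested genes, 31.5% of those called higher, 28.9% of those called lower and 36.9% of all promoters. In all, 11 motifs were searched after the fold changes were known: these 3, a wider NF-kB form, TTGCGCAA and the wide form (C/EBP), a strict and a wider MEF2 form, CAGCTG (E-box), TTCNNNGAA (STAT) and TTTCCCGC (E2F). Each wider form includes its strict form, TTNCNNAA includes TTGCGCAA, and a match is a description of the letters and not a site of binding.

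The largest falls among the named genes were those of Mstn and Il22ra2. Mstn, myostatin, a secreted brake on muscle growth (chromosome 1, 53061640 to 53068079), measured 1.44, 1.84, 6.18 and 4.07 CPM in radiated skin and 124, 166, 73.8 and 102 CPM in control skin. The groups did not overlap, and the fitted log2 difference was -5.09 with an SE of 0.50 (adjusted p 0.00073 in edgeR). Il22ra2, the soluble decoy receptor of interleukin 22 (chromosome 10, 19621998 to 19634681), measured 0.626, 1.16, 0.0396 and 0.327 CPM in radiated skin and 36.6, 10.9, 11.2 and 10.9 CPM in control skin (-5.03, SE 0.75, adjusted p 0.00235 in edgeR). Skint5 and Skint10 encode epidermal membrane proteins of the butyrophilin kind and lie on chromosome 4. Skint5 measured 0.385, 9.22, 0.436 and 10.6 CPM in radiated skin against 80.1 to 116 CPM (-4.16, SE 0.93).

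Several of these genes shared a pattern within the radiated group: they were near 0 in libraries 1 and 3 and higher in libraries 2 and 4. Skint10 measured 0, 1.36, 0.0396 and 3.13 CPM in that order (-4.34), Bbox1, the last enzyme of carnitine synthesis, 0.337, 6.26, 0.396 and 8.56 CPM (-3.88), and Serpinb7, an epidermal protease inhibitor, 0.433, 8.00, 1.98 and 10.6 CPM (-3.40). Dapl1, a gene of differentiating epithelium (-3.56), and the sensory-type receptor Mrgprb3 (-4.25) showed the same order. All 5 lay below every control library in all 4 radiated libraries. The remaining falls were those of Tmem233 (-4.26), the methyltransferase gene Inmt (-4.22), the hepcidin gene Hamp2 (-4.17) and Mlf1 (-3.56), and Mlf1 stood out for its even levels of 2.10 to 3.40 CPM in radiated skin against 20.2 to 40.4 CPM.

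The 5 smallest p-values were those of Cxcl2, given above, and of 4 genes with smaller fold changes and narrow ranges. Ptpn21, a cytoskeleton-linked tyrosine phosphatase (chromosome 12, 98676741 to 98737405), measured 41.7, 43.1, 44.0 and 44.6 CPM in radiated skin and 157, 141, 145 and 143 CPM in control skin (-1.76, SE 0.11, adjusted p 0.000205 in edgeR). Mylk4, a myosin kinase of striated muscle, fell from 115 to 174 CPM in control skin to 16.5 to 21.4 CPM in radiated skin (-2.93, SE 0.16, adjusted p 0.000165). Galnt6, which starts mucin-type sugar chains, rose from 7.67 to 11.2 CPM to 52.9 to 73.7 CPM (2.65, SE 0.18), and Glrx, glutaredoxin, rose from 7.12 to 10.2 CPM to 51.0 to 96.0 CPM (3.10, SE 0.23). In none of these 4 did the ranges overlap.

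For the gene lists that follow, the count of members called is set against the 13.6% of all tested genes called in each direction, and the median log2 fold change against 0.08 for all genes. Counts with total-count scaling are added where they moved by more than 1.5 times, and they are read against 23% of all genes called higher and 7.19% called lower. Counts with the replicate block are read against 10% of all genes called higher and 11.1% called lower. Of the 5 wound and stress keratins, 4 rose and 1 fell (median 3.09). Krt6a measured 2312, 2374, 5374 and 3408 CPM in radiated skin and 319 to 452 CPM in control skin (3.09, SE 0.31). Krt16, the partner of KRT6 in stressed epidermis, measured 1713, 2616, 5872 and 7003 CPM against 83.2 to 183 CPM (5.12, SE 0.53). Krt17 rose by 0.69, a change that did not pass with the replicate block (adjusted p 0.0764 in edgeR), and the companion-layer keratin Krt75 fell (-1.82).

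Resting keratins moved in both directions. Of 12 basal and suprabasal keratin and adhesion genes, 2 rose and 5 fell (median -0.92). The basal keratin Krt14 rose from 1682 to 2473 CPM in control skin to 3336, 4375, 7418 and 10400 CPM in radiated libraries 1 to 4 (1.61, SE 0.35), whereas its partner Krt5 measured 3172 ± 836 CPM against 5082 ± 624 CPM (SD, n = 4 each; -0.68, adjusted p 0.0519 in edgeR). Krt15, a keratin of resting basal and follicle cells, measured 35.1, 626, 49.0 and 581 CPM in radiated skin against 2061 to 2731 CPM (-2.89, SE 0.86). Krt77, a suprabasal keratin, measured 95.0, 1300, 38.0 and 1379 CPM against 5397 to 8321 CPM (-3.32, SE 0.99). Both were lowest in radiated libraries 1 and 3, like the falling genes above. The desmosomal cadherin Dsg1a fell (-1.82), as did Krt80 (-1.80) and Dsc3 (-1.16), while Dsc2 rose (2.11).

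Of 22 measured cornified envelope genes, 12 rose and 1 fell (median 3.28). The 12 were Sprr1a, Sprr1b, 4 Sprr2 genes, 4 Lce3 genes, Rptn and Tgm3. Of these Sprr1a (2.33), Rptn (5.29) and Tgm3 (3.21) did not pass with the replicate block (adjusted p 0.0550, 0.0652 and 0.125 in edgeR). Lce3b and Sprr2e had no count in control skin and were at least 44.9-fold and 14.4-fold higher in radiated skin, against a floor of 3 counts per library. The gene of this list that fell was Flg2, from 2848 to 3851 CPM to 18.5, 503, 179 and 935 CPM (-3.06, SE 0.87). Loricrin (Lor) measured 28.0 ± 23.9 CPM against 59.3 ± 17.8 CPM (-1.08, adjusted p 0.346 in edgeR), and filaggrin (Flg) 3668 ± 4809 CPM against 854 ± 118 CPM (2.11, adjusted p 0.226 in edgeR; SD, n = 4 each). Flg passed, as higher, when radiated library 1 was left out.

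All 11 measured antimicrobial and alarmin genes rose, with a median of 6.09, and 10 rose with the replicate block. Beside S100a8, S100a9 and the stefins they include Slpi, an inhibitor of neutrophil elastase, at 80.3, 18.3, 44.7 and 18.6 CPM against 0.138 to 1.17 CPM (6.26, SE 0.73). Lcn2, which withholds iron from bacteria, measured 149, 23.5, 71.0 and 7.11 CPM against 0.141 to 2.89 CPM (5.88, SE 1.10). Il33, an alarmin of the nucleus, measured 140, 107, 177 and 83.1 CPM against 15.3 to 35.3 CPM (2.37, SE 0.30). The defensins Defb3, Defb4 and Defb14 and the neutrophil granule genes Camp and Ltf were too low to be tested.

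**Figure D3:**
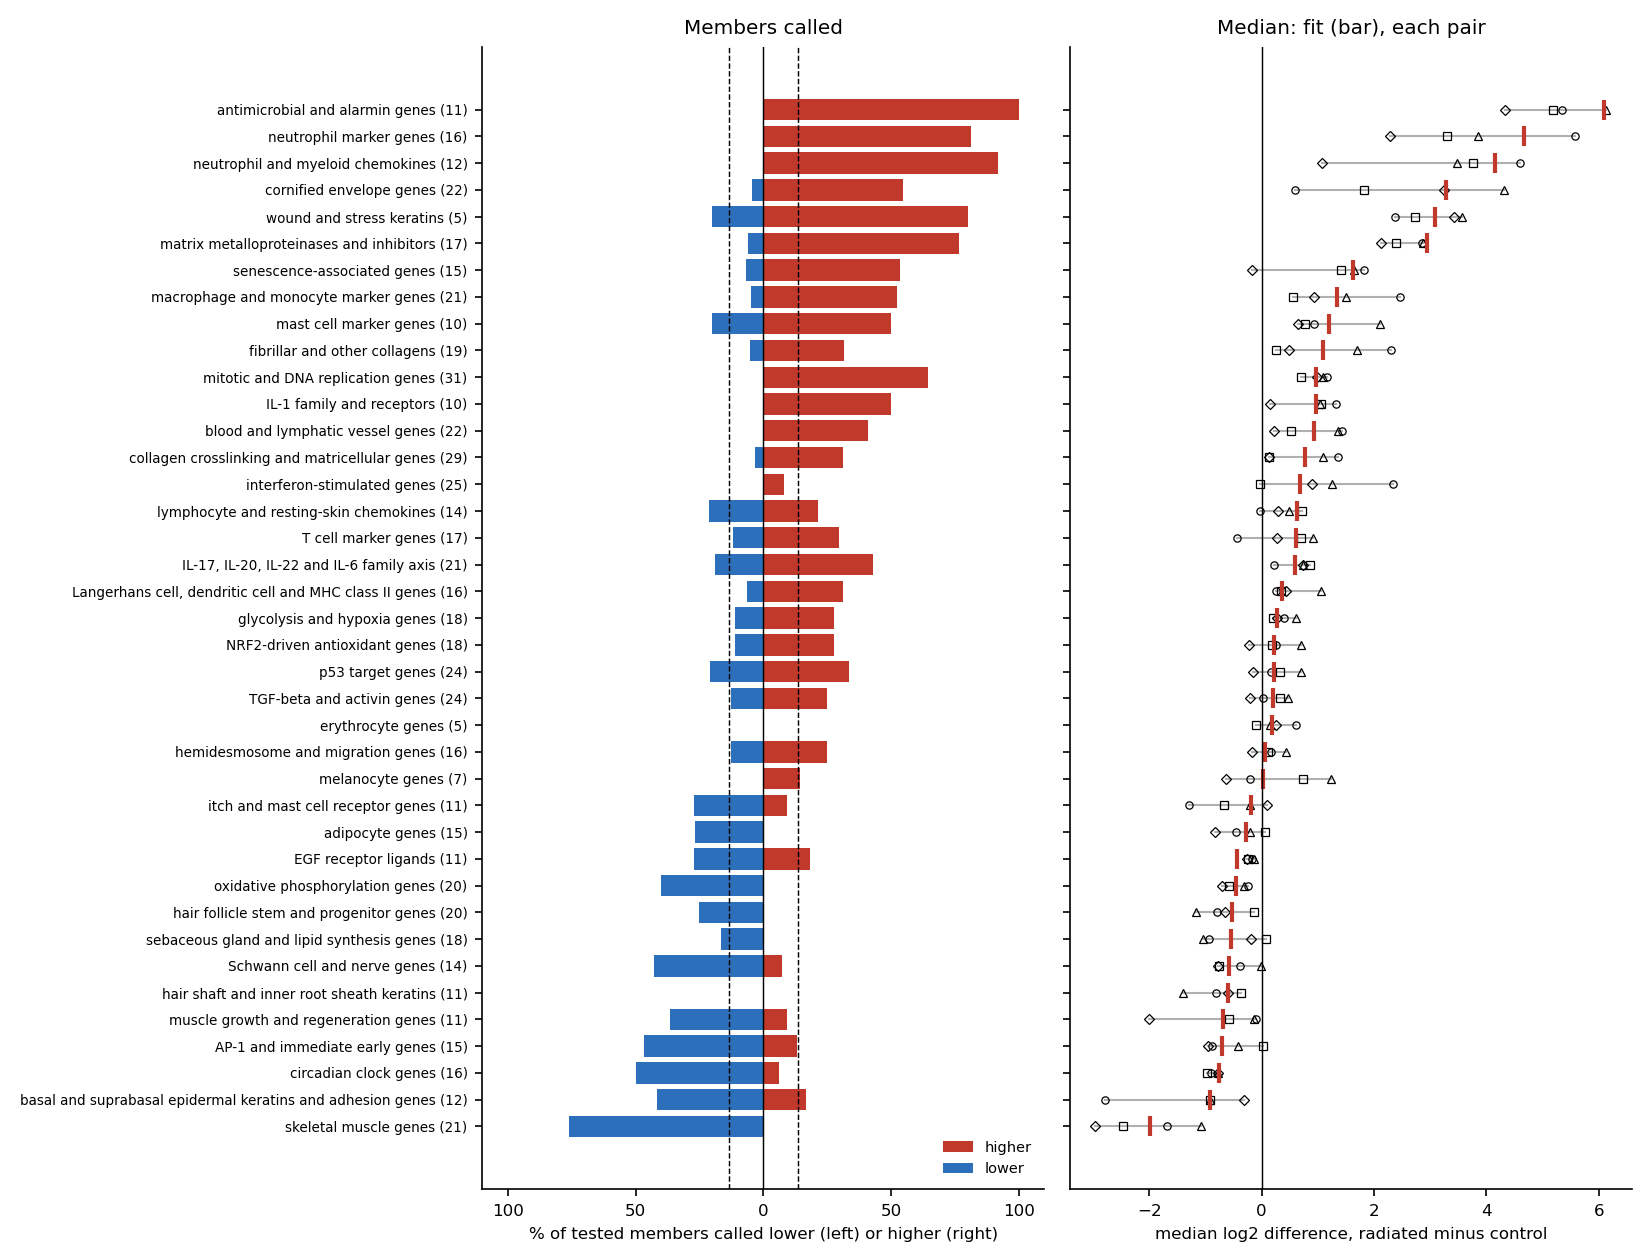
Left, the share of tested members of each of 39 lists called higher (red) or lower (blue), with dashed lines at the 13.6% of all tested genes called in each direction and the number of tested members in brackets. Right, the median log2 difference of the list in the fit (red bar) and in each same-numbered pair (circle, square, triangle and diamond for replicates 1 to 4). Antimicrobial genes have the highest median, 6.09, and skeletal muscle genes the lowest, -1.99.

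Chemokines that act on neutrophils and monocytes rose in 11 of 12 cases (median 4.15). With the replicate block 8 rose, and Ccl2 (1.76), Ccl7 (1.28) and Pf4 (2.68) did not pass (adjusted p 0.0966, 0.0546 and 0.0708 in edgeR). Cxcl1 measured 68.3, 42.8, 18.6 and 12.0 CPM against 1.25 to 3.54 CPM (3.87, SE 0.57), Cxcl5 270.0, 93.0, 90.8 and 25.8 CPM against 2.42 to 5.65 CPM (4.99, SE 0.68), and Cxcl3 rose by 5.27. Radiated library 4 was the lowest of its group for all 4 of the Cxcl genes and still lay above every control library. Ccl12 did not pass (0.87, adjusted p 0.286 in edgeR). Of 14 lymphocyte and resting-skin chemokines, 3 rose and 3 fell (median 0.63): Cxcl10, induced by interferon, rose (3.87), Cxcl9 measured 2.23 ± 1.71 CPM against 0.858 ± 0.505 CPM (1.37, adjusted p 0.176), and Ccl27a, a keratinocyte chemokine that holds T cells in skin, fell from 61.2 ± 14.2 to 11.1 ± 7.25 CPM (-2.46; SD, n = 4 each).

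In the interleukin 1 family 5 of 10 rose and none fell (median 0.96). Il1b measured 231, 182, 101 and 43.5 CPM against 2.17 to 8.96 CPM (4.49, SE 0.59), while Il1a stood at 5.89 ± 1.76 CPM against 5.73 ± 2.62 CPM (SD, n = 4 each). The Il33 receptor gene Il1rl1 rose from 8.86 to 15.9 CPM to 278, 215, 151 and 88.4 CPM (3.89, SE 0.37).

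Of 21 genes of the interleukin 17, 20, 22 and 6 axis, 9 rose and 4 fell (median 0.60). Il19 rose by 6.39, Il24 by 5.55, Osm by 4.85, Il6 by 4.43 and Lif by 3.65, the first 2 from at most 7 counts over the control libraries. Il6 measured 45.1, 49.9, 13.1 and 8.46 CPM against 0.250 to 1.88 CPM. The receptor chains Il20ra (-1.84), Il20rb (-1.46) and Il6ra (-1.03) and the decoy Il22ra2 fell, and Il4ra rose (2.16, SE 0.29). Il17f was at 0.697 ± 0.631 CPM against 0.613 ± 0.296 CPM, and Il17ra rose by 0.60 (adjusted p 0.0938 with the replicate block in edgeR).

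Neutrophil genes rose in 13 of 16 cases and none fell (median 4.68). Csf3r, the receptor for the growth factor of neutrophils, measured 183, 88.5, 203 and 37.0 CPM against 2.42 to 4.72 CPM (5.12, SE 0.54), and Cxcr2, the receptor of the chemokines above, rose from 8.09 ± 1.78 to 82.9 ± 64.0 CPM (3.35; SD, n = 4 each). Trem1, an amplifying receptor of neutrophils and monocytes, measured 75.5, 39.1, 23.7 and 10.5 CPM against 0.138 to 0.403 CPM (7.24, SE 0.71). Granule genes did not follow evenly: Mmp8 measured 77.3 CPM in radiated library 1 and 0.561 to 3.65 CPM in the others (5.93), and Ngp was at 59.2 CPM in that library and 0.514 to 1.07 CPM in the others (adjusted p 0.0514). The summed level of the 4 fixed neutrophil markers was 452, 152, 269 and 70.0 CPM in radiated libraries 1 to 4 and 8.91 to 14.1 CPM in control skin.

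Macrophage genes rose in 11 of 21 cases, with 1 lower (median 1.34). Cd14, a receptor for bacterial lipopolysaccharide, rose from 5.41 to 17.6 CPM to 279, 145, 134 and 40.7 CPM (3.66, SE 0.57), and Csf1r rose (1.45). Adgre1, a macrophage surface receptor, measured 54.2 ± 23.1 CPM against 24.9 ± 11.7 CPM (1.11, adjusted p 0.0587 in edgeR; SD, n = 4 each), and Timd4, a marker of long-resident macrophages, fell (-1.96). Of 10 mast cell genes 5 rose and 2 fell (median 1.19): the proteases Cpa3 (1.01) and Mcpt4 (1.45) rose, and the receptor Mrgprb2, through which basic compounds trigger mast cells, fell from 3.57 to 6.52 CPM to 0.515 to 1.54 CPM (-2.58, SE 0.39).

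T cell genes gave no single direction, with 5 of 17 higher and 2 lower (median 0.62). Cd3e measured 7.01 ± 4.12 CPM against 9.20 ± 4.27 CPM (-0.39, adjusted p 0.57 in edgeR) and Cd3d 28.3 ± 13.1 CPM against 26.1 ± 16.9 CPM (SD, n = 4 each). Foxp3, the regulator of regulatory T cells, rose (1.64, SE 0.34) and so did Cd4 (1.94), and with the replicate block these were the 2 of the 5 that passed. Skint3 (-2.20) and Skint4 (-1.96), keratinocyte genes of a family needed for skin gamma delta T cells, fell. Of 16 Langerhans, dendritic and class II genes 5 rose and 1 fell (median 0.36). The one that fell was Cd207, langerin, the marker of Langerhans cells, from 5.08 to 9.23 CPM to 0.289, 2.23, 0.634 and 1.26 CPM (-2.68, SE 0.52), and Epcam measured 98.4 ± 50.2 CPM against 220.4 ± 8.39 CPM (-1.17, adjusted p 0.0608 in edgeR). Ccr7, which guides dendritic cells to lymph nodes, rose (3.75).

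Interferon-stimulated genes passed in 2 of 25 cases, Cxcl10 and Oas2 (1.71), and the list had a median of 0.68. Isg15 measured 18.3 ± 10.6 CPM against 12.4 ± 13.1 CPM (0.55, adjusted p 0.581 in edgeR) and Ifit1 47.6 ± 21.4 CPM against 43.9 ± 55.7 CPM (SD, n = 4 each). The control libraries varied widely in these genes. With the replicate block 8 of the 25 rose, when 10% of all tested genes were called higher, and with total-count scaling 6 did.

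**Figure D4:**
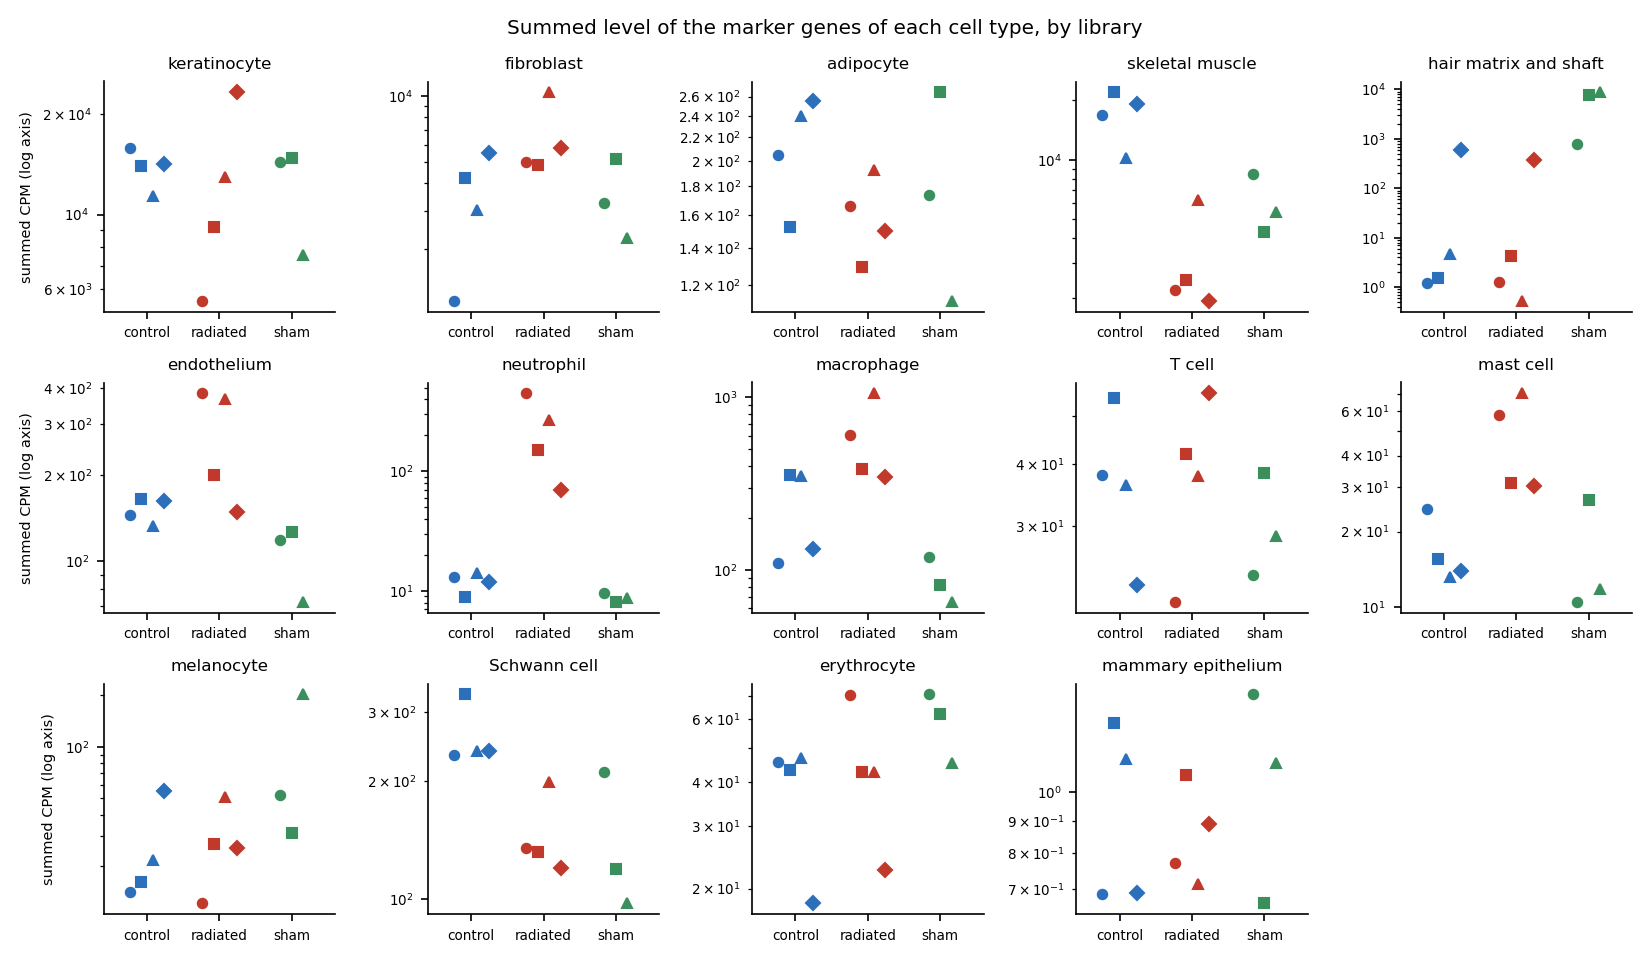
Summed CPM of the marker genes of 14 cell types on log axes, in control (blue), radiated (red) and sham (green) skin, with circles, squares, triangles and diamonds for replicates 1 to 4. The neutrophil sum is 70.0 to 452 CPM in radiated skin and 8.91 to 14.1 CPM in control skin, the muscle sum is 1913 to 6231 CPM against 10260 to 22040 CPM, and the keratinocyte sums of the groups overlap.

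The genes of the p53 response, which DNA damage switches on, gave both directions. Of 24 measured, 8 rose and 5 fell (median 0.22), and 6 and 4 did so with the replicate block and 8 and 2 with total-count scaling. Cdkn1a, the cell cycle inhibitor p21, measured 419, 514, 660 and 284 CPM in radiated skin and 597, 512, 515 and 724 CPM in control skin, and the groups overlapped (-0.33, SE 0.24, adjusted p 0.339 in edgeR). Pmaip1, which encodes the death-promoting protein NOXA, was even within both groups, at 44.4 to 49.7 CPM against 15.4 to 18.2 CPM (1.42, SE 0.13, adjusted p 0.000641 in edgeR). Bax (1.46, SE 0.22), which acts in mitochondrial cell death, and Mdm2 (0.69), the ligase that degrades p53, rose as well. Ccng1 fell from 186 to 302 CPM to 60.4 to 131 CPM (-1.41, SE 0.25), and Ddit4l (-2.94), Perp (-1.02), Trp53inp1 (-0.81) and Ei24 (-0.48, adjusted p 0.0567 with the replicate block) fell. Perp and Trp53inp1 each did not pass under 12 of 21 alternatives and Ei24 under 10, total-count scaling among them.

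Genes of mitosis and DNA replication rose in 20 of 31 cases and none fell (median 0.97). Mcm3, part of the replicative helicase, measured 38.9, 41.1, 40.6 and 39.9 CPM against 10.9 to 21.3 CPM (1.32, SE 0.21), and Plk1, a mitotic kinase, 8.33, 9.26, 20.5 and 19.8 CPM against 0.873 to 4.54 CPM (2.32, SE 0.50). Cdc20 (1.99), Ccnb1 (1.75) and Cdk1 (1.30) rose. The proliferation marker Mki67 measured 106, 156, 140 and 227 CPM against 46.5, 94.6, 70.4 and 137 CPM and was higher in 4 of 4 pairs (0.84, adjusted p 0.0912 in edgeR). It passed with the replicate block (adjusted p 0.0111), as did Top2a (0.78, adjusted p 0.0764 without the block). In sham skin Mki67 measured 179 to 353 CPM, and its lowest value lay above 3 of the 4 radiated libraries.

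Of 15 senescence-associated genes 8 rose and 1 fell (median 1.63), and 6 rose with the replicate block. Plaur, the receptor of urokinase, rose from 6.00 to 11.7 CPM to 166, 102, 101 and 33.0 CPM (3.37, SE 0.44). Igfbp3 fell from 225 to 243 CPM to 81.3, 74.3, 80.9 and 49.0 CPM (-1.71, SE 0.17), and Cdkn2b measured 1.51 ± 0.872 CPM against 2.05 ± 0.307 CPM (-0.43, adjusted p 0.538 in edgeR; SD, n = 4 each). Cdkn2a was too low to be tested.

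Of 15 immediate early genes and AP-1 subunits 7 fell and 2 rose (median -0.70), and with total-count scaling 5 fell and 3 rose. Fosb fell (-2.30), as did Egr3 (-1.45), Myc (-1.38), Jund (-0.95), Egr2 (-0.76) and Maff (-0.70), and Fos measured 168 ± 72.3 CPM against 132 ± 78.9 CPM (0.35, adjusted p 0.576 in edgeR; SD, n = 4 each). Fosl1 measured 61.6, 70.0, 72.4 and 18.4 CPM in radiated skin and 113, 141, 125 and 148 CPM in control skin (-1.25, SE 0.36), but only 1.01 to 2.52 CPM in sham skin. The control and sham libraries did not overlap, and the radiated libraries lay between them. Fosl2 (0.70) and Ier3 (1.09) rose, and neither passed with the replicate block (adjusted p 0.0632 and 0.0965 in edgeR).

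Of 17 metalloproteinases and inhibitors 13 rose and 1 fell (median 2.95). Mmp1a and Mmp1b, interstitial collagenases, had no count in control skin and were at least 4.20-fold and 9.93-fold higher, against the floor of 3 counts per library. Mmp3, stromelysin 1, measured 1012, 172, 404 and 85.8 CPM against 10.5 to 49.8 CPM (3.86, SE 0.79), and Mmp10, stromelysin 2, measured 22.2, 2.52, 10.7 and 2.53 CPM with a single count in control skin (ratio 802, interval 144 to 31720). The inhibitors parted: Timp1 rose from 0.458 to 2.30 CPM to 65.2, 51.6, 183 and 20.2 CPM (5.73, SE 0.75), and Timp3 fell from 470 to 1029 CPM to 123, 221, 132 and 270 CPM (-1.89, SE 0.32).

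Of 29 crosslinking and matricellular genes 9 rose and 1 fell (median 0.77), and 6 rose with the replicate block and 15 with total-count scaling. Tnc, tenascin C, a matrix protein of healing wounds, measured 4418, 2751, 6534 and 780 CPM against 15.0 to 29.2 CPM (7.46, SE 0.69, adjusted p 0.000641 in edgeR). Spp1, osteopontin, rose from 1.55 to 3.29 CPM to 83.2, 23.8, 37.9 and 19.0 CPM (4.22, SE 0.52). Lox, lysyl oxidase, rose by 1.32 (adjusted p 0.0526 with the replicate block), Loxl1 measured 118 ± 80.8 CPM against 53.03 ± 23.0 CPM (1.14, adjusted p 0.0925 in edgeR; SD, n = 4 each), and Ccn2 fell (-1.08).

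Of 19 collagens 6 rose and 1 fell (median 1.09), and 8 rose with the replicate block and 13 with total-count scaling. Col1a1 measured 3684, 4001, 9005 and 5250 CPM in radiated skin and 374, 3561, 2157 and 4899 CPM in control skin, so that the groups overlapped, with control library 1 far below the others (0.99, SE 0.63, adjusted p 0.267 in edgeR). Col1a2 likewise did not pass (0.51, adjusted p 0.443). Those that rose were Col12a1 (3.21, SE 0.31), which decorates fibrils under tension, at 778, 415, 676 and 307 CPM against 47.2 to 77.6 CPM, Col4a1 (1.69) and Col4a2 (1.88) of basement membranes, Col18a1, Col8a1 and Col5a2. Col17a1, the hemidesmosome collagen that anchors basal keratinocytes, fell from 1800 to 2268 CPM to 505 to 1145 CPM (-1.24, SE 0.24).

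In the transforming growth factor family 6 of 24 genes rose and 3 fell (median 0.20), and 10 rose with total-count scaling. Inhba, the activin A subunit, measured 789, 506, 539 and 143 CPM against 12.3 to 21.4 CPM (4.89, SE 0.48), and Tgfb1 rose from 74.0 ± 12.2 to 235 ± 150 CPM (1.66; SD, n = 4 each), while Tgfb2 did not pass (-0.48, adjusted p 0.229 in edgeR). Bmp2 (-1.47) and Bmp4 (-1.27) fell. Of 11 ligands and receptors of the EGF receptor family 2 rose, Areg (1.84) and Nrg1 (1.73), and 3 fell, Btc (-1.75), Egf (-1.38) and Erbb2 (-0.96), with Egfr itself at -0.13 (adjusted p 0.462) and a list median of -0.44. Erbb2 did not pass under 11 of 21 alternatives, total-count scaling among them. Among 16 hemidesmosome and migration genes 4 rose and 2 fell (median 0.07), and 2 and 1 did so with the replicate block and 5 and none with total-count scaling. Itga5, the fibronectin receptor chain, rose (1.40), the hemidesmosome linker Dst fell (-0.74), and the laminin chains of the epidermal basement membrane measured 143 ± 45.8 CPM against 113 ± 7.99 CPM for Lama3 and 89.8 ± 42.5 CPM against 101 ± 15.4 CPM for Lamb3 (SD, n = 4 each).

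None of 11 hair shaft and root sheath genes passed. Krt71, an inner root sheath keratin, measured 0.289, 2.04, 0 and 199 CPM in radiated skin and 0, 0, 1.13 and 349 CPM in control skin, so that only replicate 4 of each group held much of it (-0.79, SE 2.41, adjusted p 0.831 in edgeR), and Krt25 did likewise (-0.47). Sham skin held 508 to 5288 CPM of Krt71. With the replicate block 3 of the 11 fell, when 11.1% of all tested genes were called lower. Of 20 stem and progenitor genes of the follicle 5 fell (3 with total-count scaling) and none rose (median -0.53): Cd34 (-1.29), Sox9 (-1.35), Lhx2 (-1.65), Lgr6 (-2.08) and Edar (-2.57), with Lgr5 at 6.12 ± 3.39 CPM against 8.52 ± 2.89 CPM (SD, n = 4 each; -0.48). Lhx2 did not pass under 12 of 21 alternatives and Lgr6 under 10, total-count scaling among them for both. Of 18 sebaceous and lipid synthesis genes 3 fell (median -0.54; 2 fell and 1 rose with total-count scaling), the desaturases Scd1 (-0.63, adjusted p 0.0839 with the replicate block) and Scd3 (-2.88) and the triglyceride enzyme Dgat2 (-0.89). Of 7 melanocyte genes only Kit rose (1.48), which mast cells share, and Dct measured 16.7 ± 7.25 CPM against 17.8 ± 13.7 CPM and Tyr 1.63 ± 0.985 CPM against 1.76 ± 1.25 CPM.

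Skeletal muscle genes fell in 16 of 21 cases and none rose (median -1.99). Myh4, the fast myosin heavy chain, measured 1242, 1813, 3980 and 1465 CPM in radiated skin and 14140, 17500, 8172 and 15490 CPM in control skin (-2.71, SE 0.42). Ckm, muscle creatine kinase, fell from 1011 to 1936 CPM to 169 to 634 CPM (-2.17), and Acta1 measured 718 ± 594 CPM against 1609 ± 643 CPM (-1.17, adjusted p 0.133 in edgeR; SD, n = 4 each). In sham skin Myh4 measured 3422 to 6432 CPM and Ckm 387 to 863 CPM, all below the control libraries, and some sham values of both lay within the radiated range. The depth of each biopsy into the muscle sheet is not given, and its part in these values was not tested. Of 11 genes of muscle growth and repair 1 rose, Runx1 (1.34), and 4 fell (median -0.69; 3 rose and 3 fell with total-count scaling): Mstn, Fbxo32 (-1.91), the stem cell factor Pax7 (-1.86) and Myh8 (-0.78), with Myod1 at -0.69 (adjusted p 0.385).

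Of 15 adipocyte genes 4 fell (2 with total-count scaling) and none rose (median -0.28): Adipoq, adiponectin, from 33.5 to 50.4 CPM to 20.5 to 31.6 CPM (-0.67, SE 0.19, adjusted p 0.0255 in edgeR), Lpl (-0.99), Slc2a4 (-1.27) and Cd36 (-0.86). Adipoq did not pass with total-count scaling (-0.45, adjusted p 0.106 in edgeR), in the fit of 32 libraries, or without radiated library 1 or 2, control library 3 or 4, or the pair of replicate 1, 2 or 4. Cd36 did not pass under 12 of 21 alternatives, total-count scaling among them. Leptin (Lep) measured 27.3 ± 7.43 CPM against 39.3 ± 15.3 CPM (-0.53, adjusted p 0.251; SD, n = 4 each). Of 22 vessel genes 9 rose and none fell (median 0.93), and 17 rose with total-count scaling. These were Pdpn (2.68, SE 0.47), which keratinocytes and fibroblasts share with lymphatics, the leukocyte-binding Selp (2.13), Sele (1.88) and Vcam1 (2.02), Pdgfrb (1.52), Angpt2 (1.33), Tie1 (1.14), Pecam1 (0.92) and Vegfa (0.74), while Cdh5 missed the threshold (1.14, adjusted p 0.0714 in edgeR). With the replicate block Tie1 and Pecam1 did not pass (adjusted p 0.0575 and 0.0733).

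Of 14 Schwann cell and nerve genes 6 fell and 1 rose (median -0.57), and 4 and 3 did so with total-count scaling. Mbp, a gene of the myelin sheath (-0.81), fell with Cdh19, from 12.5 to 21.2 CPM to 3.04 to 5.49 CPM (-2.20, SE 0.25), and Artn, a growth factor for sensory nerves, rose from 0.115 to 0.458 CPM to 3.18 to 9.95 CPM (4.61, SE 0.56). Of 11 itch and mast cell receptor genes 1 rose, the protease Klk6 (5.12, SE 0.45), and 3 fell (median -0.19; 3 rose and 3 fell with total-count scaling), Mrgprb2, Mrgprb3 and the protease inhibitor Spink5. Clock genes fell in 8 of 16 cases, with 1 higher (median -0.76). Arntl, the BMAL1 gene (-0.74), and its targets Nr1d2 (-1.31), Cry1 (-1.44) and Per2 (-1.08) fell, Hlf, a clock output factor, fell from 33.9 to 50.6 CPM to 3.76 to 12.4 CPM (-2.68, SE 0.37), and Clock did not pass (-0.26, adjusted p 0.131). The gene that rose was Bhlhe40, which did not pass with the replicate block. The hour of sampling is not given in the labels, and its part was not tested.

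Of 18 genes of the NRF2 antioxidant response 5 rose and 2 fell (median 0.22), and 3 and 2 with the replicate block. Slc7a11, the cystine importer, measured 222, 160, 110 and 76.0 CPM against 6.71 to 10.7 CPM (4.03, SE 0.34), and Gsta4, a detoxifying transferase, 56.7, 82.8, 316 and 158 CPM against 3.16 to 6.04 CPM (5.08, SE 0.56). Gstm1 (-1.71) and Gsta2 (-2.91) fell, Hmox1 rose by 1.48 (adjusted p 0.126 with the replicate block in edgeR), and Nqo1 stood at 5.84 ± 0.570 CPM against 6.14 ± 1.03 CPM. Of 18 glycolysis and hypoxia genes 5 rose and 2 fell (median 0.27), among them the lactate exporter Slc16a3 (2.13), Eno1 (1.54) and the glucose carrier Slc2a1 (1.37), with Hk2 at 305 ± 81.0 CPM against 286 ± 38.4 CPM (SD, n = 4 each). With the replicate block 1 of the 18 fell, as with total-count scaling. Of 20 oxidative phosphorylation genes 8 fell and none rose (median -0.45), and 4 fell with total-count scaling. Pdk4 (-2.02), Ucp3 (-1.88), Cox7a1 (-1.54) and Cox8b (-1.25) led the falls, genes that skeletal muscle also expresses, while Ndufa1 (-0.37) and Ndufa4 (-0.39) did not pass. None of 5 red cell genes passed (1 rose with total-count scaling), and Hba-a1 measured 12.0 ± 6.53 CPM against 11.7 ± 4.61 CPM and Hba-a2 18.2 ± 6.78 CPM against 15.6 ± 4.08 CPM.

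Whether the difference of week 3 was itself different from those of the other weeks was tested with interaction contrasts over 32 libraries and 19338 genes. Against week 1, 1085 genes (5.61%) differed, 562 with a higher (2.91%) and 523 with a lower (2.7%) fold change in week 3, and against week 2 it was 1335 (6.9%), 543 higher (2.81%) and 792 lower (4.1%). Against week 4 only 81 genes (0.419%) passed, 30 higher (0.155%) and 51 lower (0.264%), 2684 had an unadjusted p under 0.05, and with the replicate block 175 passed. These counts rested on single libraries of week 3. The count against week 1 was 569, 605 and 608 without radiated library 1, radiated library 3 or control library 1 and 2019 without radiated library 4, and the count against week 2 was 878 without control library 1. The count against week 4 was 3, 8 and 49 without control library 2, 4 or 3, 19 and 24 without radiated library 2 or 4, and 156 without radiated library 1. The weeks are different mice, and each contrast uses the same week 3 libraries.

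Several genes that rose in week 3 had a higher fold change there than in weeks 1 and 2. Inhba had fold changes of 0.48, 0.72, 4.89 and 4.96 on the log2 scale from the first week to the last, and week 3 exceeded week 1 by 4.41 (adjusted p 0.000829 in edgeR) and week 2 by 4.17 (0.00118). Timp1 went through -0.12, 2.20, 5.73 and 7.64, Spp1 through -0.20, 0.79, 4.21 and 6.62 and Tnc through 1.66, 2.42, 7.46 and 8.97, and all 3 exceeded weeks 1 and 2 with adjusted p at or under 0.0234. Of 16 neutrophil genes 11 had a higher fold change in week 3 than in week 1, against 2.91% of all genes. For week 2 the number was 5, against 2.81%. Of 31 mitotic genes 14 had a higher fold change in week 3 than in week 2, when the median of that list was -0.55, against 2.81% of all genes.

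For the stress keratins no difference between weeks passed this test, which does not show that they were equal. Krt6b had weekly log2 fold changes of 9.91, 6.99, 8.75 and 10.68, Krt16 6.35, 3.25, 5.12 and 7.88, and S100a8 5.52, 3.24, 6.91 and 6.31, with every contrast against week 3 at an adjusted p of 0.287 or more. None of these 3 passed in week 1 (adjusted p 0.0535, 0.0535 and 0.0976 in edgeR), and in week 2 Krt6b passed (0.0387) while Krt16 (0.1315) and S100a8 (0.198) did not. None of the 5 stress keratins passed any of the 3 contrasts, which 5.61%, 6.9% and 0.419% of all genes passed. Of the 11 alarmin genes 2 had a higher fold change in week 3 than in week 1 and 1 than in week 2. These counts are set against 2.91% and 2.81% of all genes. Krt77, a keratin of the upper epidermis, went from -0.20 and -0.28 to -3.33 and then -4.59, and week 3 differed from weeks 1 and 2 by -3.13 and -3.05 (adjusted p 0.0497 for both in edgeR). The fold changes of Mrgprb2 (-2.33 and -2.26) and Hlf (-2.20 and -2.01) also lay lower in week 3 than in weeks 1 and 2.

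Genes with the smallest interaction p included genes of blood cells and junctions. Hdc, which makes histamine in neutrophils and mast cells, had weekly log2 fold changes of 0.31, 1.24, 4.16 and 3.98, and week 3 exceeded week 1 by 3.85 (SE 0.47, adjusted p 0.000107 in edgeR). Srgn, the granule proteoglycan of blood cells, exceeded week 1 by 2.73 (SE 0.39). Nectin3, a junction protein, differed from week 1 by -2.24 and from week 2 by -2.25 (SE 0.31 for both). Against week 2, Otud1, a deubiquitinase, differed by -3.29 (SE 0.44) and Saa3, an acute phase gene, by 4.48 (SE 0.64).

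Several matrix genes had a smaller fold change in week 3 than in week 4. Pmepa1, a target and inhibitor of transforming growth factor signalling, had a log2 fold change of 0.60 in week 3 and 2.90 in week 4, a difference of -2.30 (SE 0.36, adjusted p 0.00866 in edgeR). Of 19 collagens 3, Col1a2, Col5a1 and Col5a2, and of 29 crosslinking and matricellular genes 4, Loxl2, P4ha2, P4ha3 and Postn, had a lower fold change in week 3 than in week 4, against 0.264% of all genes, while Col1a1 missed the threshold (-3.15, adjusted p 0.0571). Slc7a5, an amino acid carrier, differed from week 4 by -2.27 (SE 0.37), and Fosl1 turned from -1.26 to 3.70 (difference -4.96, adjusted p 0.0270 in edgeR). The fold change of Jun lay 2.21 higher and that of Lysmd1 1.82 higher (SE 0.30) in week 3.

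**Figure D5:**
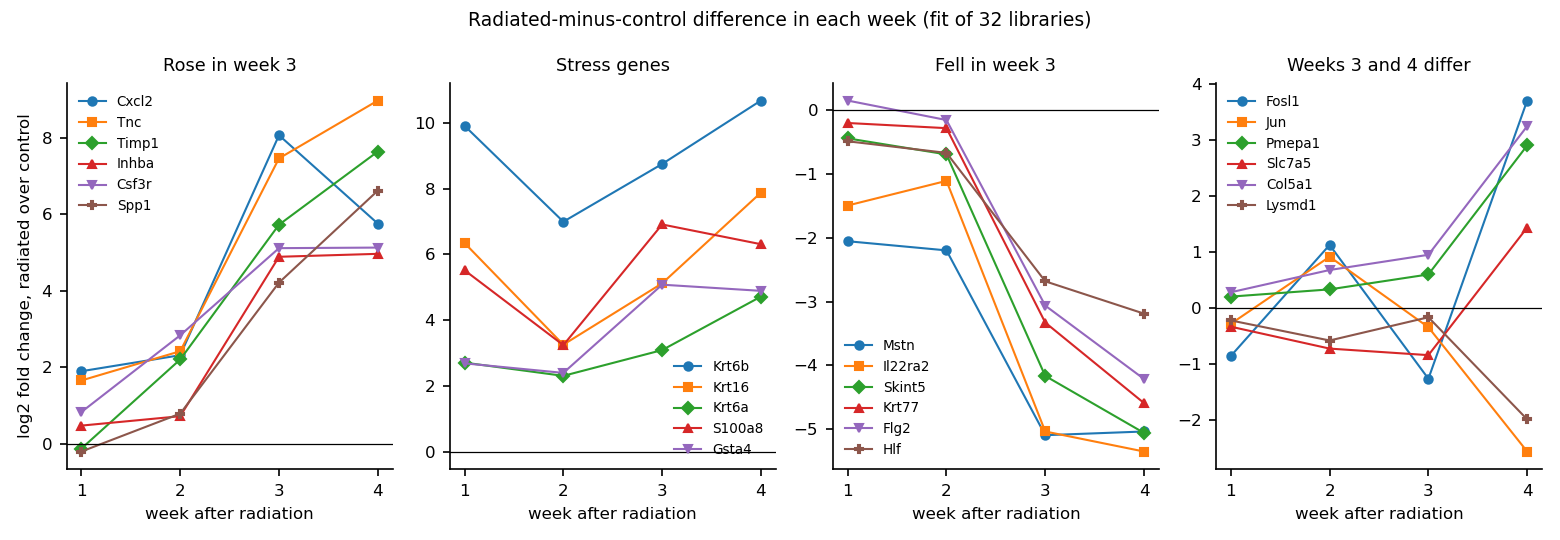
Log2 fold change of radiated over control skin in weeks 1 to 4, from 1 fit of 32 libraries, for genes that rose in week 3, stress genes, genes that fell in week 3 and genes whose fold change differed between weeks 3 and 4. Inhba steps from 0.72 to 4.89 between weeks 2 and 3, Krt6b is above 6.9 in every week, and Fosl1 turns from -1.26 to 3.70. None of the 5 stress genes passed in week 1, and Krt6b alone of them did in week 2.

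Sham skin gives the level in mice that had no radiation, and it was set beside the week 3 groups without a test. Several genes that rose were as low in sham as in control skin or lower: Krt6b measured 1.27 to 8.59 CPM, Cxcl2 at most 0.0898 CPM, and S100a9 0.133 to 0.159 CPM. Krt77, which fell, measured 3590 to 6769 CPM in sham skin, far above the radiated libraries. Some genes had a control level far from sham, such as Il1b, which measured 2.17 to 8.96 CPM in control skin and 0.265 to 1.02 CPM in sham skin. For Fosl1 and Il1b no control library overlapped a sham library. Between control and sham skin, radiation of the animal, body site and hair stage cannot be told apart. Hair shaft markers summed to 788 to 8890 CPM in sham skin and 1.24 to 596 CPM in control skin.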

How the data were processed

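Bulk RNA sequencing of mouse skin was analysed in 4 radiated and 4 control libraries of week 3, with 3 sham libraries for levels and the libraries of weeks 1, 2 and 4 for contrasts between weeks. Per the submitters' processing notes, reads were trimmed with Trim Galore 0.6.7 and quantified with kallisto 0.46.2, and mm10 is named as the build. The authors deposited estimated counts per gene, which were rounded to whole numbers here. How reads of near-identical genes were shared is not given in the sources used here.

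Genes were kept with edgeR's filterByExpr, scaled by trimmed means of M-values (TMM) and tested with the quasi-likelihood test of edgeR 4.0.16 in R 4.3.3, two-sided, with Benjamini-Hochberg adjustment over all genes tested and a threshold of 0.05. Log2 fold changes are radiated over control, and SE is the fold change over the root of F. Levels are CPM with TMM factors common to 11 libraries. Contrasts between weeks came from 1 edgeR fit of 32 libraries. Alternatives were a replicate block, other scalings, filters, DESeq2 1.42.0, limma-voom (limma 3.58.1), and leaving out libraries or pairs, of which the pairs were chosen after seeing the data. Counting intervals are 95% exact and cover counting error only.

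The labels fix which libraries the comparison holds, and the comparison and the gene lists were chosen with earlier results of these data known. The genes named were the 12 largest rises and 12 largest falls that passed, kept one direction in all 4 pairs and averaged 5 CPM or more, leaving out predicted and pseudogene models, the 5 smallest p-values, the 3 smallest for each contrast between weeks, 7 fixed genes, and the first 2 members and largest changes of each list. Some results for genes this rule names are not reported here. The pairing was taken from 35 samples of 19 mice, and the labels do not state it for each sample. The correlation of deviations between same-numbered libraries averaged 9e-04 (-0.0905 to 0.0875), and the test was set up without a block. P-values measure the spread between these samples. Gene positions are from GENCODE M21 on GRCm38, where 35945 of 36106 genes matched. On simulated counts for the week 3 comparison (17456 genes), the edgeR test recovered 98 of 100 genes changed 8-fold and 31 of 100 changed 2-fold, with 8 unchanged genes among 137 called. The simulation changed only 200 genes, gave both groups the same spread and held no pairs. In the data 27.2% of genes were called and radiated libraries varied more, so these figures need not hold there.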

Additional observations from a re-analysis of the deposited data

Results flagged for a closer look

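In 164 groups of 4 libraries, 7 held a library far from the other 3, where chance marks about 1 in 20 groups. Stfa2 measured 0.094 CPM in control library 3 and 0 in the others, a matter of 2 counts. Lce3d measured 56.8 CPM in radiated library 3 and 2.91 to 4.07 CPM in the others. In control skin, Il22ra2 measured 36.6 CPM in library 1 against 10.9 to 11.2 CPM, Bbox1 46.7 CPM in library 2 against 59.6 to 61.4 CPM, and Pmepa1 130.6 CPM in library 2 against 91.5 to 97.3 CPM. The mean log2 CPM of the melanocyte genes was 3.08 in control library 4 against 1.70 to 1.93, and that of the oxidative phosphorylation genes was 4.59 in radiated library 4 against 5.04 to 5.12.

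The log2 fold change of week 3 differed from that of another week, by the interaction test of edgeR, for 26 of the 43 named genes, where 5.61%, 6.9% and 0.419% of all genes differed from weeks 1, 2 and 4. Of the 26, 8 were named for the smallest p-values of these contrasts, so that their passing follows from the choice, and the other 18 were among 35 named for their week 3 difference or fixed, which shares the week 3 libraries. Against week 1, week 3 was higher for Retnlg by 7.75, Acod1 by 7.18, Mmp13 by 6.79, Cxcl2 by 6.17, Saa3 by 4.41, Hdc by 3.85 and Srgn by 2.73. Other genes were lower: the difference was -3.73 for Skint5, -3.62 for Skint10, -3.61 for Dapl1, -3.57 for Mrgprb3, -3.54 for Il22ra2, -3.06 for Bbox1, -3.04 for Mstn, -2.93 for Serpinb7, -2.24 for Nectin3, -1.87 for Mylk4, -1.63 for Otud1 and -1.29 for Ptpn21. Against week 2, week 3 was higher for Acod1 by 6.08, Cxcl2 by 5.75, Saa3 by 4.48, Hdc by 2.92, Galnt6 by 1.85 and Srgn by 1.77. The negative differences from week 2 were -4.15 for Inmt, -3.93 for Il22ra2, -3.64 for Dapl1, -3.52 for Skint10, -3.52 for Mrgprb3, -3.47 for Skint5, -3.29 for Otud1, -3.19 for Bbox1, -3.05 for Tmem233, -2.94 for Serpinb7, -2.90 for Mstn, -2.35 for Mlf1, -2.25 for Nectin3, -1.72 for Mylk4 and -1.57 for Ptpn21. Against week 4 the differences were -2.30 for Pmepa1, -2.27 for Slc7a5 and 1.82 for Lysmd1. The cause of these differences was not tested.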

How the results depend on the processing

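The count of 4805 genes was 4854 with DESeq2 size factors, 5324 with total-count scaling, 4711 with upper-quartile factors, 4899 with limma-voom, 6024 with the DESeq2 Wald test, 4425 without a filter, 5012 with a strict filter and 6723 in 1 fit of 32 libraries. In the paired fit with the replicate block it was 3721, of which 3567 were among the 4805. Leaving out 1 library gave 3209 to 5071, and leaving out a pair gave 2385 (replicate 1), 2616 (replicate 2), 3351 and 3786. The counts of changed differences ran from 569 to 2019 against week 1, from 878 to 1836 against week 2 and from 3 to 156 against week 4 when 1 library of week 3 was left out, and the replicate block gave 1277, 1475 and 175.

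Over 4861 values of single genes under the alternatives, 418 were of called genes that no longer passed, 49 of other genes that now passed, and 9 had the opposite sign, all of genes that did not pass. Of the genes named above, those that lost their call under 10 or more of 21 alternatives were Bhlhe40, Il17ra, Cd36, Trp53inp1, Lhx2, Perp, Scd1, Krt17, Erbb2, Hmox1, Lox, Cpa3, Cox8b, Pecam1, Ei24, Lgr6, Egr2, Tgm3, Ier3, Il20rb and Maff. Krt71 was at 0.0446 with the replicate block and 1.15 with limma-voom, and with libraries left out it ran from -6.88 (without radiated library 4) to 7.09 (without control library 4) and Krt25 likewise from -6.74 to 5.74. With libraries or pairs left out, Cd3e ran from -0.98 to 0.0149 and Fos from -0.11 to 0.79. Flg was at -0.17 with limma-voom, and Egfr at 0.10 and Lysmd1 at 0.0783 with total-count scaling. Among the genes with the largest changes, Retnlg (adjusted p 0.165), Sprr2a2 (0.0995) and Sprr2d (0.0546) did not pass with limma-voom, and Skint10 (0.0543) did not pass without the pair of replicate 2. Genes with under 10 control counts have ratios limited by counting. The cause of the other changes was not tested.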

Other observations

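Some gene families outside the lists were looked at after their values were seen, and they are given as values only, beside 13.6% of all tested genes called higher and 13.6% called lower. All 13 tested genes for proteins encoded in mitochondrial DNA were lower in radiated skin, with a median log2 fold change of -1.64 and a range from -2.50 to -0.85, and 12 were lower with total-count scaling and 12 with the replicate block. Skeletal muscle, which is rich in mitochondria, also had lower markers in radiated skin, and its part was not tested. Of 11 Skint genes 7 were lower, with a median of -2.20, and none was higher.

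Connexins, the proteins of gap junctions, split: of 14 tested, 4 were higher (7 with total-count scaling) and 3 lower. Gjb2 rose from a mean of 12.6 CPM in control skin to 418 CPM (5.05) and Gjb6 from 1.67 to 63.0 CPM (5.26), and sham skin held 286 CPM of Gjb2 and 32.7 CPM of Gjb6. Gjb5 fell (-2.05). Of 9 genes with symbols that begin with Stfa, Cstdc or Csta, 6 were higher and none lower. The stefins among them have copies close in sequence, and Cstad (0.75, not called) is not a stefin. Of 6 lipid transporter genes from Abca5 to Abca9, 4 were lower, with Abca5 at -2.86, and Abca7 was higher (1.01). The S100a and Serpinb families were looked at in the same way. Of 13 S100a genes 3 were higher (5 with total-count scaling) and 1 lower, and of 17 Serpinb genes 3 were higher (5 with total-count scaling) and 4 lower.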
